A study of Caenorhabditis elegans with 2 samples.

Results

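The genes described here are 38 Caenorhabditis elegans genes for synapsis and meiotic crossing over, taken by name from 19973 nuclear protein-coding genes in the WBcel235 annotation, and all 38 were found. They fall into 6 roles: 5 axis genes, 6 for the synaptonemal complex and its assembly, 6 for the breaks that start recombination, 6 for crossovers, 8 for pairing and the nuclear envelope, and 7 for repair. They were chosen by name and not by a measured value, although earlier results of these data were known. The question addressed is where chromatin immunoprecipitation and sequencing (ChIP-seq) of REC-8::GFP placed its peaks at these genes. REC-8 is a meiotic kleisin, a subunit of the cohesin ring.

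In the germ line, each chromosome is organised as loops along a protein axis built from cohesin and HORMA-domain proteins. Homologous chromosomes pair, the synaptonemal complex assembles between their axes, and programmed DNA breaks are repaired so that each pair gains a crossover. Worms pair through zinc finger proteins that bind special sites near chromosome ends, and these sites are moved along the nuclear envelope by a bridge to the cytoskeleton. REC-8 cohesin is part of the axis on which the other proteins act. The measurements below concern REC-8::GFP on the DNA of these genes, and say nothing of how much RNA or protein each gene made.

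All samples came from strain YL563, a transgenic line with a C-terminal GFP-FLAG tag on REC-8. Both samples were young adult hermaphrodites collected whole, 48 hours after synchronization as starved L1 larvae, and the precipitation used an antibody to GFP, although a further label names rec-8. The 2 biological replicates form 1 group, and no control library or untagged strain was analysed here. Germ line and soma were mixed in every sample, so fewer germ cells and less REC-8::GFP per cell cannot be told apart. The sources used here give neither the promoter of the transgene nor whether untagged REC-8 remained.

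The data are peak lists on the ce11 genome, which is the same assembly as WBcel235. The relaxed lists of peaks and background held 18953 peaks for both replicates together (the pooled list), 21160 for replicate 1 and 21503 for replicate 2. The reproducible set, chosen from the pooled list by the irreproducible discovery rate, held 606 peaks, of which 584 were nuclear. The files hold no read counts, so sequencing depth is unknown. A summit is the highest point of a peak, and signal is the value the authors gave the peak, used here only to rank peaks within a list. A percentile is the percent of peaks in the same list with the same or a lower signal. The median signal was 31 in the pooled list, 19.9 in replicate 1, 16.1 in replicate 2 and 110.7 in the reproducible set. The relaxed lists reach far into background: −log10 q was as low as 0.0185 at a pooled member summit, and 17% of the genome lay within 500 bp of a pooled summit. The highest −log10 q was 2.37 in the pooled list and in the reproducible set. With 1 group no test was possible, so each count is set beside the same count over all nuclear protein-coding genes, and intervals are exact 95% Clopper-Pearson intervals that cover the counting of genes only.

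Sequences are shown first for 3 of the 4 member summits in the reproducible set. Genes annotated as transfer RNA (tRNA) or small nucleolar RNA (snoRNA) stood at them. The other one, in zhp-3, had the highest signal of all member summits and is not printed here. Each is 201 bases of the RefSeq WBcel235 genome centred on the pooled summit, written 5′ to 3′ on the strand of the member gene. The first pair lies in introns of brd-1, the worm BARD1 gene, at III:6888606-6888806 and III:6887661-6887861 on the minus strand. Capitals mark the bases of the tRNA-Gly gene K04C2.t2 in the first and of the tRNA-Lys gene K04C2.t3 in the second. The him-5 window, at V:14092408-14092608 on the plus strand, is centred just past that gene. Its capitals mark bases of smy-3, which the annotation classes as a snoRNA gene.

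brd-1 intron, K04C2.t2: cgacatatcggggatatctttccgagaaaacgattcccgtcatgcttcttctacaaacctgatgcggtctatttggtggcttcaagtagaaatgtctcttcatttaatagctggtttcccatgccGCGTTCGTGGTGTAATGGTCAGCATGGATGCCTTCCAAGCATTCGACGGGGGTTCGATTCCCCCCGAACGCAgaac

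brd-1 intron, K04C2.t3: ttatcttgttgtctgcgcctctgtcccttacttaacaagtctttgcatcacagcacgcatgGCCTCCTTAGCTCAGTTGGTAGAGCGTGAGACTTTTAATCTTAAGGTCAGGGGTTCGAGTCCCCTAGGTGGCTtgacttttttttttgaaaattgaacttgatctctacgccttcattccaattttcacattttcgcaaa

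him-5, smy-3: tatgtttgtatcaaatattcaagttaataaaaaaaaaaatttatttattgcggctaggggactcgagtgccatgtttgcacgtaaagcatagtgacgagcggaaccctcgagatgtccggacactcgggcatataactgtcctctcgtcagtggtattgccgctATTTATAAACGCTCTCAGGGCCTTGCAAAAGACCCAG

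Both tRNA genes hold the letters GGTTCGA, which lie in the B box, an internal promoter element of tRNA genes. That word was on either strand of 4 of 42 windows around member summits (9.52%), against 3.23% of windows of that length around all nuclear pooled summits. None of the 38 member promoters held it, from 250 bp before to 50 bp after the outermost 5′ end, and 1.43% of all protein-coding promoters did.

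The next windows are those of the strongest start summits with no small RNA gene near. The cosa-1 window lies at III:2725649-2725849 on the plus strand, and the brc-1 window at III:3863034-3863234 on the minus strand. Capitals in the brc-1 window mark TCTCTC, the reverse complement of GAGAGA, and CCGCCC. The cosa-1 window held neither of these words, and neither window held TTCGCGC or its variant TTCCCGC, nor the tRNA word above.

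cosa-1: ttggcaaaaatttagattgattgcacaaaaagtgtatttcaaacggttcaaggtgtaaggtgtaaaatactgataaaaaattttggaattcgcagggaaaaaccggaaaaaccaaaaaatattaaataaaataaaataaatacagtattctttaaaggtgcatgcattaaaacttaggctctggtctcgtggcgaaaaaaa

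brc-1: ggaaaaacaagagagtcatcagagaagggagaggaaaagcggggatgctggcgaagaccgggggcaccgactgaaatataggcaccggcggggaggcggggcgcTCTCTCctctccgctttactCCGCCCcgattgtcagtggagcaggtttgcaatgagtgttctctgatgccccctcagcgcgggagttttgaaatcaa

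The GC content was 29.9% in the cosa-1 window and 57.7% in the brc-1 window, against a median of 36.8% over the 42 member windows and 37.8% over all nuclear pooled summits. GAGAGA was in 9.52% of member windows and 13.8% of all, and CCGCCC in 4.76% of member windows and 5.84% of all. GC content thus differed widely between the leading summits.

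In the pooled list, the share of these genes with a REC-8::GFP summit near a start was close to that of all genes, and in each replicate list it was higher. A summit of the pooled list lay within 500 bp of a transcript start of 11 members (28.9%, interval 15.4 to 45.9), against 27.4% of all nuclear protein-coding genes. The replicate 1 list placed one at 14 members (36.8%, interval 21.8 to 54) and at 28.2% of all genes. The replicate 2 list placed one at 17 members (44.7%, interval 28.6 to 61.7) and at 29.8% of all genes. In these 3 lists the interval included the share of all genes, though in replicate 2 its lower bound was just under it. A window of 1000 bp gave 20 members (52.6%) and 40.2% of all genes in the pooled list. Several annotated starts, each counted here, were present in 39.5% of members and 27.4% of all genes. With the outermost 5′ end only, the pooled list gave 9 members (23.7%) and 24.4% of all genes. Assigning each summit to the nearest start only gave 9 members (23.7%) and 23.4%.

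Agreement between the replicates was limited. Of the 38 genes, 6 had a start summit in both replicate lists, 8 in replicate 1 alone, 11 in replicate 2 alone and 13 in neither. The 6 (15.8%, interval 6.02 to 31.3, against 15.3% of all genes) were syp-4, dsb-2, him-5, cosa-1, mre-11 and brc-1. They made up 24% of the members with a start summit in either list, against 35.7% among all genes. The same 6 had a pooled start summit matched within 100 bp in both replicate lists, against 8.68% of all genes. All 11 pooled start summits had a match in replicate 1 and 6 had one in replicate 2, but the pooled list was called on the reads of both and is not independent of either.

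Restricting the pooled list to stronger peaks left fewer genes. A start summit above the middle of the list by signal (the 50 percentile) was found at 8 members (21.1%) and 16.5% of all genes. One above the 75 percentile was found at 4 members (10.5%) and 9.89% of all genes, namely syp-4, him-5, cosa-1 and brc-1. One in the reproducible set was found at 1 member (2.63%), him-5, and 1.56% of all genes. Among the 11 pooled start summits, −log10 q was 2.37 at him-5, 2.07 at cosa-1, 1.22 at syp-4 and 0.754 at brc-1. Over the others it ran from 0.0391 at him-8 to 0.227 at mre-11, too low to set them apart from background. The median percentile of the strongest start summit was 63.5 over the 11 members that had one, against 61.7 over all genes that had one. In replicate 1 the medians were 54.2 over 14 members and 58.9 over all genes with one, and in replicate 2 they were 54.8 over 17 members and 61.6.

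**Figure D1:**
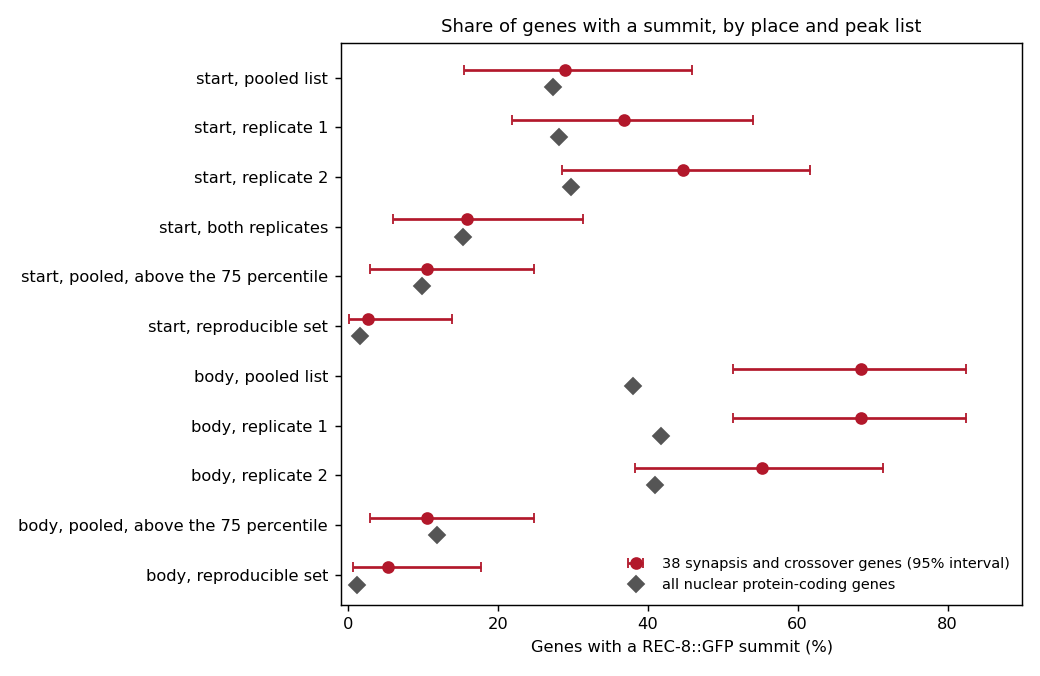
Percent of genes with a REC-8::GFP summit near a transcript start or in the gene body, by peak list, for the 38 synapsis and crossover genes (red circles, exact 95% intervals) and for all nuclear protein-coding genes (grey diamonds). Start shares were 28.9% of members and 27.4% of all genes in the pooled list, 36.8% and 28.2% in replicate 1, and 44.7% and 29.8% in replicate 2. Body shares in the pooled list were 68.4% and 38%.

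Axis genes had no start summit in any list. htp-1, htp-2, htp-3 and him-3 encode HORMA-domain proteins that coat the cohesin axis, and lab-1 encodes a protein that guards REC-8 against early loss from part of each chromosome. The pooled, replicate 1 and replicate 2 lists each gave 0 of 5 axis genes, against 27.4%, 28.2% and 29.8% of all genes. A group of 5 genes is too small to set 0 apart from those shares. A window of 1000 bp gave 1 in the pooled list, against 40.2% of all genes. Inside the genes the summits were weak or seen in 1 list. The strongest body summits of htp-3 had signals of 25.1 in the pooled list, 17.2 in replicate 1 and 14 in replicate 2. These stood at the 13.4, 26.8 and 29.7 percentiles. The replicate 2 one lay at another place in the gene, and the replicate 2 match within 100 bp had 13.5, at the 22.6 percentile. htp-2, him-3 and lab-1 had body summits in replicate 1 alone, with signals of 23.0, 15.9 and 17.9, and htp-1 in replicate 2 alone, with 16.2. The axis group thus held no pooled summit above the 13.4 percentile, within its genes or at their starts.

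A strong peak lay close to htp-2 all the same. A pooled summit with a signal of 103.1, at the 98.1 percentile and in the reproducible set, stood 300 bp past the 3′ end of htp-2, 2 bp from the start of a pseudogene. It lies outside both the start window and the gene, so it is in no count above. htp-1 and htp-2 are near copies, with 90.3% of coding bases identical. Only 4.03% of the 31-base words of htp-1 and 4.01% of those of htp-2 occur elsewhere in the genome. The sources used here do not say how reads with several matches were treated.

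In the synaptonemal complex group, syp-4 was the gene with a start summit. syp-1, syp-2, syp-3 and syp-4 encode proteins of the central region that joins the axes, cra-1 is needed for their assembly, and pch-2 encodes an ATPase that remodels HORMA-domain proteins. The pooled list gave 1 of the 6 genes, replicate 1 also 1, and replicate 2 gave 3, adding syp-3 (21.8) and pch-2 (22.9). The shares of all genes in these lists were 27.4%, 28.2% and 29.8%. The syp-4 summit had a signal of 53.7 in the pooled list, where it ranked 1606, 41.3 in replicate 1 and 46.9 in replicate 2. These stood at the 91.5, 96.5 and 97.5 percentiles of their lists. The pooled summit lay 333 bp upstream of the syp-4 start, on chromosome I, where the gene spans 6847511 to 6849923.

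The syp-4 upstream region holds other genes. The summit was 125 bp from the start of the small nuclear RNA (snRNA) gene H27M09.6, 44 bp from that of the non-coding RNA gene H27M09.7 and 219 bp from that of the protein-coding gene H27M09.5. A further pooled summit with a signal of 66.1 stood 539 bp upstream of syp-4, just outside the window and 13 bp from the H27M09.5 start. Which of these genes the peaks belong to cannot be told apart. syp-4 also had an exon summit with a signal of 42.3 in the pooled list, at the 82 percentile, 33.1 in replicate 1 and 16.9 in replicate 2, although the replicate 2 summit lay more than 100 bp away.

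Bodies of the other synaptonemal complex genes held pooled peaks of middling rank, with −log10 q no higher than 0.292. In the pooled list the strongest body summits had signals of 36.9 at pch-2, 36.4 at syp-3, 34.5 at cra-1 and 32.4 at syp-1, at percentiles of 71.3, 70.1, 64.6 and 56.7. At syp-3 the replicate lists gave 33.9 and 24.6, at the 92.7 and 87.0 percentiles, from summits at different places in the gene. syp-2 had a body summit in replicate 1 alone, with a signal of 24.2.

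Break genes included the member with the strongest start summit. spo-11 encodes the enzyme that cuts the DNA. dsb-1, dsb-2 and him-5 encode proteins that promote the cuts, with him-5 acting above all on the X chromosome, and him-17 and xnd-1 encode chromatin-associated factors that affect breaks. The pooled list gave 3 of the 6 genes, dsb-1, dsb-2 and him-5, against 27.4% of all genes. Replicate 1 gave the same 3, against 28.2%, and replicate 2 gave 4, namely spo-11, dsb-2, him-5 and him-17, against 29.8%. With a window of 250 bp the pooled count fell to 1 of 6, against 17% of all genes.

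The him-5 summit had a signal of 101.9 in the pooled list, at rank 368, 29.2 in replicate 1 and 68.2 in replicate 2. Its percentile was 98.1 in the pooled list, 87.1 in replicate 1 and 99 in replicate 2, and it was in the reproducible set. It lay 421 bp downstream of an internal annotated start of him-5 and 54 bp past the gene's 3′ end (gene at V:14090426-14092454). The gene smy-3, annotated as a snoRNA, started 64 bp from it and the protein-coding gene D1086.3 284 bp from it. The outermost him-5 start had no pooled summit within 500 bp, and the weak intron summit (23.9, at the 3 percentile) was 524 bp from it.

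dsb-2 had a summit of middling rank at its start, 41 bp upstream, with a pooled −log10 q of 0.203. Its signal was 34.2 in the pooled list, at rank 6927 and the 63.5 percentile, 18.1 in replicate 1 and 16.9 in replicate 2, and no other protein-coding or small RNA gene start was within 500 bp. dsb-1 had a weaker one 380 bp upstream, with 26.1 in the pooled list (−log10 q 0.0427), 16.3 in replicate 1 and none in replicate 2. In the bodies, spo-11 and dsb-1 reached pooled signals of 32.0 and 31.5, and xnd-1 24.9. The dsb-1 body summit was 251 bp from the start of the neighbouring gene acl-13. The xnd-1 body summit was much higher in its rank in replicate 1 (30.1, at the 88.5 percentile) than in the pooled list (the 11.1 percentile), and replicate 2 had none. him-17 had none in the pooled list.

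**Figure D2:**
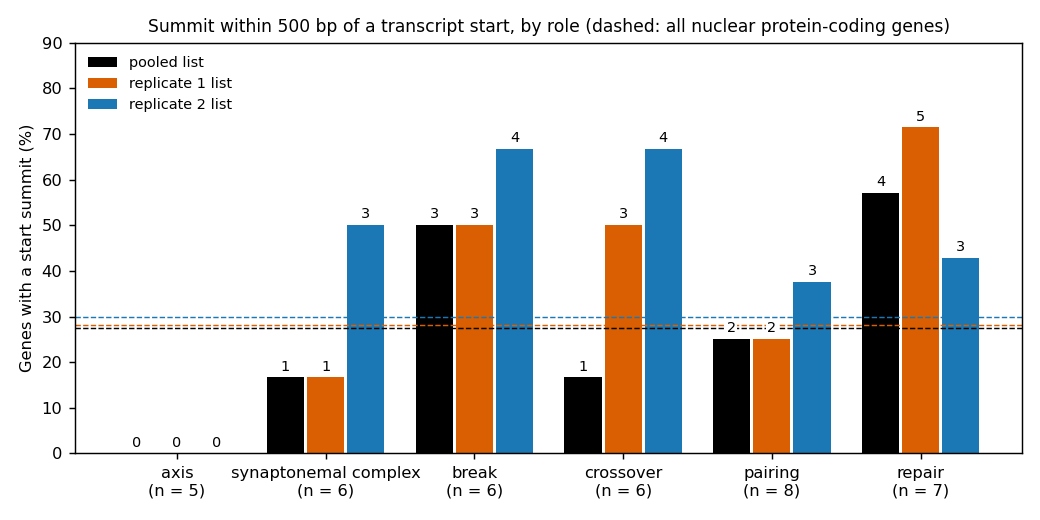
Percent of genes in each role with a REC-8::GFP summit within 500 bp of a transcript start, in the pooled, replicate 1 and replicate 2 lists, with the number of genes above each bar and the share of all nuclear protein-coding genes as dashed lines. Axis genes had 0 of 5 in each list, break genes 3, 3 and 4 of 6, and repair genes 4, 5 and 3 of 7. The dashed lines stand at 27.4%, 28.2% and 29.8%.

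Crossover genes were led by cosa-1 at starts and by zhp-3 in bodies. him-14 and msh-5 encode the worm MutS pair that stabilises crossover intermediates, cosa-1 a cyclin-like protein that marks crossover sites, and zhp-3 a RING finger protein of the same sites. him-6 encodes the BLM helicase and rmh-1 a partner of it. The pooled list gave 1 of the 6 genes a start summit, against 27.4% of all genes. Replicate 1 gave 3 (cosa-1, msh-5 and rmh-1), against 28.2%. Replicate 2 gave 4 (cosa-1, him-14, zhp-3 and him-6), against 29.8%.

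The cosa-1 start summit was the strongest with no small RNA gene near. It had a signal of 63.5 in the pooled list, at rank 1010, 38.1 in replicate 1 and 24.2 in replicate 2, at the 94.7, 95.3 and 86.2 percentiles. It lay 367 bp upstream of cosa-1 (III:2726116-2731670), inside an intron of cox-6B, whose nearest start was 26086 bp away. The −log10 q of the summit was 2.07, and it was not in the reproducible set, where the lowest signal was 80.6. Since 14% of the 31-base words of cosa-1 occur elsewhere in the genome, repeats lie within this gene.

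The zhp-3 summit was the strongest of all member summits. It lay in an intron on chromosome I, in a gene at 8529376 to 8531342, with a signal of 115.2 in the pooled list (rank 276), 61.6 in replicate 1 (rank 272) and 60.8 in replicate 2 (rank 275). The 3 lists thus placed it almost equally high, at the 98.5, 98.7 and 98.7 percentiles. The intron holds the tRNA-Glu gene K02B12.t1, whose start was 67 bp from the summit, on the same strand as zhp-3.

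The other crossover genes had body summits of lower pooled signal. rmh-1 had a pooled summit of 38 (the 74.2 percentile), with 21.3 in replicate 1 and 20 in replicate 2 within 100 bp. cosa-1 had an exon summit of 35.0 in the pooled list, with no match within 100 bp in either replicate. msh-5 had 24.6 in the pooled list, at the 8.57 percentile, with no match within 100 bp in either replicate. Its replicate 1 body summit (15.7, at the 10.1 percentile) lay at another place, 199 bp inside a start, and is also its replicate 1 start summit. him-6 ranked low in the pooled list (24.0, at the 3.25 percentile) but high in replicate 1 (28.2, at the 85.4 percentile, at another place in the gene), with 16.8 in replicate 2, at the 56.2 percentile. him-14 had no body summit in any relaxed list and a start summit in replicate 2 alone (15.3).

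Pairing genes had no summit above the 75 percentile of any list. him-8, zim-1, zim-2 and zim-3 encode the zinc finger proteins of the pairing centres and lie side by side on chromosome IV. chk-2 and plk-2 encode kinases that act on them, and sun-1 and zyg-12 the nuclear envelope bridge. The pooled list gave 2 of the 8 genes a start summit (27.4% of all genes), him-8 and zyg-12, replicate 1 the same 2 (28.2% of all genes), and replicate 2 gave 3 others (29.8% of all genes), zim-2, zim-3 and chk-2. Body summits were found in 5 of the 8 in the pooled list (38% of all genes), 3 in replicate 1 (41.8%) and 5 in replicate 2 (40.9%). No pairing gene had a start summit in both replicate lists.

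zyg-12 had a summit 142 bp inside its start, with a signal of 32.4 in the pooled list (rank 8234, the 56.6 percentile), 23.0 in replicate 1 and none in replicate 2 within 100 bp. him-8 had 25.9 in the pooled list and 18.8 in replicate 1, 139 bp upstream. Body summits of the group ran from 23.9 at chk-2 to 32.4 at zyg-12 in the pooled list, with 26.7 at zim-1, 27.9 at sun-1 and 28.5 at plk-2 between them. him-8, zim-2 and zim-3 had none in any relaxed list. One replicate 2 summit, with a signal of 16.5, counted both in the body of zim-1 and at the start of zim-2, whose annotated spans overlap.

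The zinc finger genes are related copies. Coding bases were 78.2% identical between zim-1 and zim-3, 74.4% between zim-2 and zim-3, 71.5% between zim-1 and zim-2, and 44.2% to 46.5% between him-8 and the others. Words of 31 bases found elsewhere in the genome made up 50.2% of zim-1, 15.6% of zim-3 and 12.9% of zim-2. The part of such repeats in the zim-1 peaks was not tested.

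Repair genes had start summits at 4 of 7 in the pooled list, against 27.4% of all genes, but at 3 of 7 in replicate 2, against 29.8%, where break and crossover genes had 4 of 6 each. rad-51 encodes the strand exchange protein, rad-50, mre-11 and com-1 act in resecting breaks, brc-1 and brd-1 encode the BRCA1 and BARD1 ubiquitin ligase, and him-18 is the SLX4 scaffold for nucleases. The 4 in the pooled list were rad-50, mre-11, brc-1 and him-18. Replicate 1 gave the same 4 and com-1, and the 3 in replicate 2 were rad-51, mre-11 and brc-1.

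brc-1 led the group at starts. Its summit, 166 bp upstream, had a signal of 47.2 in the pooled list (rank 2358), 25.3 in replicate 1 and 21.9 in replicate 2, at the 87.6, 77.6 and 80.7 percentiles. No other protein-coding or small RNA gene start was within 500 bp of it. Words of 31 bases found elsewhere in the genome made up 51.3% of the brc-1 gene itself, and their part in its peaks was not tested. The mre-11 summit, 102 bp upstream, had 35.0 in the pooled list (rank 6413, the 66.2 percentile), 20.4 in replicate 1 and 17.4 in replicate 2. It also lay 146 bp from the start of the neighbouring gene wdr-5.3. him-18 had 33.0 in the pooled list (rank 7801, the 58.8 percentile) and 19.5 in replicate 1, 139 bp upstream, and rad-50 had 29.9 and 21.3 near an internal start. Neither had a match in replicate 2.

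Both intron summits of brd-1 (III:6885207-6889504, minus strand) were in the reproducible set. The summit near K04C2.t2 had a signal of 104.9 in the pooled list (rank 341), 64.3 in replicate 1 and 38.1 in replicate 2. The tRNA-Gly gene K04C2.t2 started 25 bp from it and a further tRNA-Gly gene, K04C2.t1, 100 bp from it on the opposite strand. The summit near K04C2.t3 had 100.3 in the pooled list (rank 378), 70.6 in replicate 1 and 29.7 in replicate 2, and the tRNA-Lys gene started 39 bp from it. Both stood above the 92 percentile of each list, in sequence printed above. brd-1 had no start summit in any list, and brc-1, its partner gene, had a single weaker body summit of 33.6.

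rad-51 had an exon summit of 40.7 in the pooled list, at the 79.6 percentile, with 18.1 in replicate 1 and 25.2 in replicate 2. That summit was 247 bp from the start of the neighbouring gene thk-1. com-1 had a body summit of 32.8 in the pooled list and 25.4 in replicate 1, and mre-11 had none in the pooled list.

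**Figure D3:**
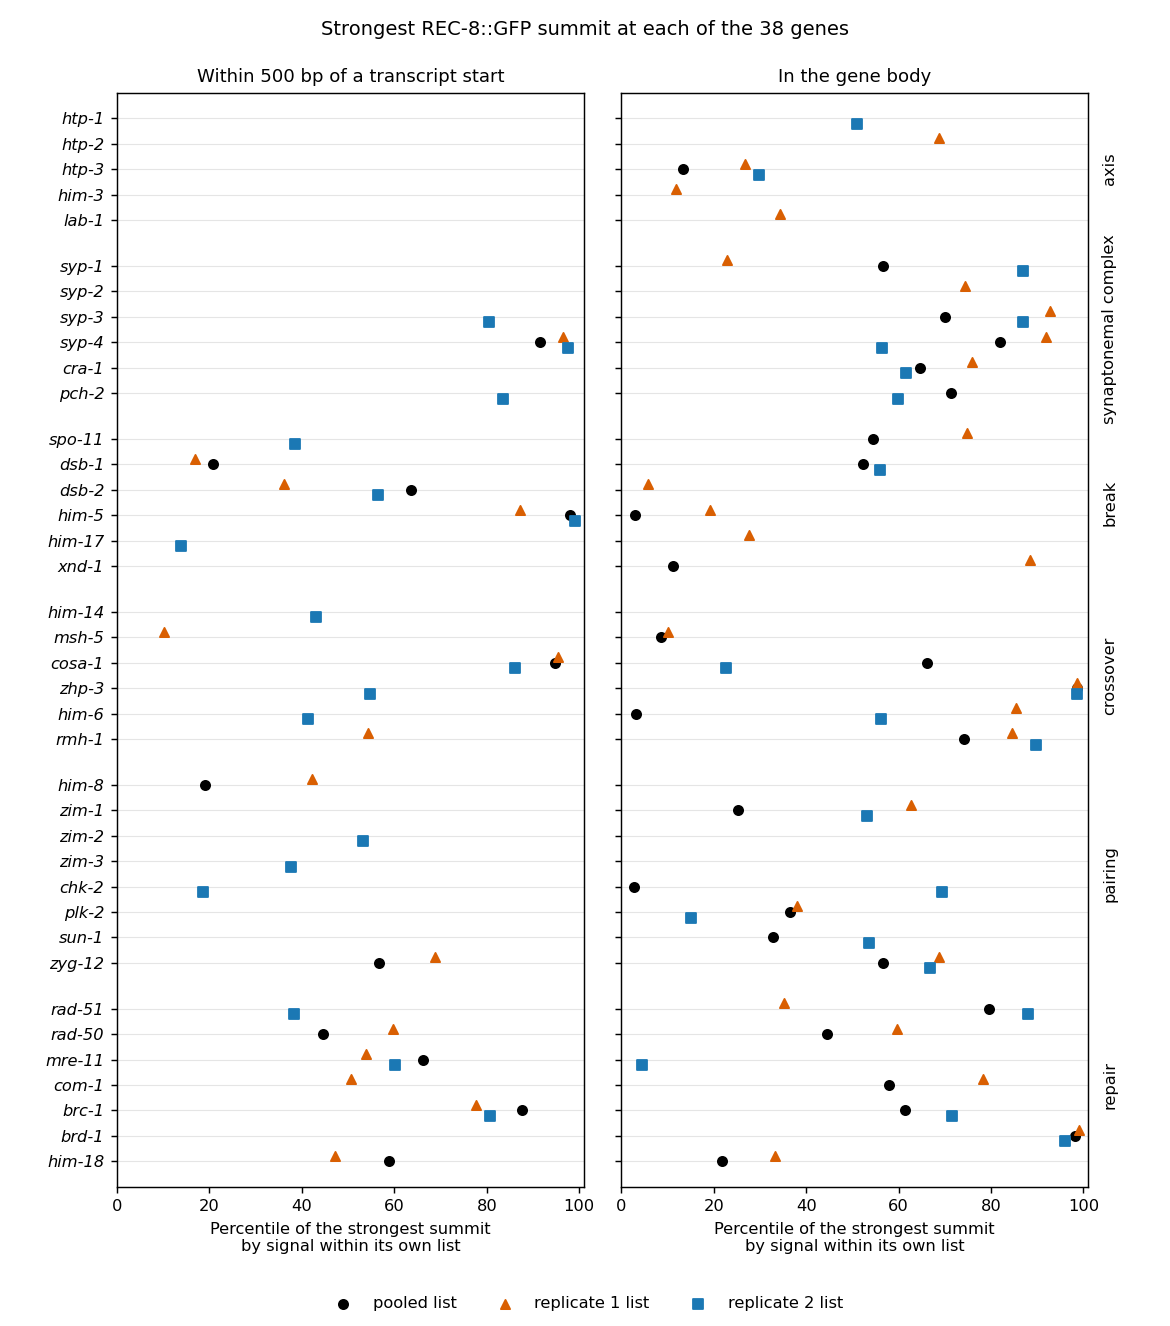
Percentile by signal of the strongest REC-8::GFP summit at each of the 38 genes, near a start (left) and in the body (right), in the pooled list (circles), replicate 1 (triangles) and replicate 2 (squares), with no symbol where a list had no summit. syp-4, him-5, cosa-1 and brc-1 stand high in all 3 lists at starts, zhp-3 and brd-1 in bodies, and the axis rows are empty on the left.

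Body summits were more frequent among these genes than among all genes in the pooled list. One or more lay in 26 members (68.4%, interval 51.3 to 82.5), against 38% of all nuclear protein-coding genes. Replicate 1 also gave 26 members (68.4%, interval 51.3 to 82.5), against 41.8%, and replicate 2 gave 21 (55.3%, interval 38.3 to 71.4), against 40.9%, a share inside the interval. By role the pooled list gave 1 of 5 axis genes, 5 of 6 synaptonemal complex genes, 4 of 6 break genes, 5 of 6 crossover genes, 5 of 8 pairing genes and 6 of 7 repair genes. Counting starts and bodies in any of the 3 relaxed lists, all 38 members had a summit (100%, interval 90.7 to 100), against 66.4% of all genes. That count makes no allowance for gene length or number of starts, and a single weak summit in 1 list is enough for it.

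Stronger body peaks gave a mixed picture. A body summit above the 75 percentile of the pooled list lay in 4 members (10.5%, interval 2.94 to 24.8), syp-4, zhp-3, rad-51 and brd-1, against 11.9% of all genes. One in the reproducible set lay in 2 members (5.26%, interval 0.644 to 17.7), zhp-3 and brd-1, against 1.12%. The median percentile of the strongest body summit was 55.5 over the 26 members that had one and 58.9 over all genes that had one. Above the 50 percentile, the counts were 15 members (39.5%) and 22.5% of all genes.

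The members were also longer than other genes. The members' median length was 2717 bp (range 1012 to 9867) against 2027 bp for all genes. Among genes within the members' range, a background chosen after the values were seen, 40.5% had a pooled body summit. That background removes only the shortest and longest genes and does not match the members' lengths, so it cannot show how much length adds. Per length, the members held 33 pooled summits in 129.7 kb, or 25.4 per 100 kb, against 19.5 over all gene bodies. The exact Poisson interval of the members' density, 17.5 to 35.7, includes 19.5, and it covers the counting of summits only. The densities were 26.2 against 22.3 in replicate 1 and 25.4 against 22 in replicate 2. Exons held 29.5 per 100 kb in the members and 22.5 in all genes, and introns 19.3 and 16.9. Exons made up 60% of the members' bases and 47.1% of all gene bodies. Of the 33 pooled body summits, 8 (24.2%) had a match within 100 bp in both replicate lists, against 21.2% over all gene bodies, and 7 had a match in neither.

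The strongest peaks at these genes coincided with small RNA genes. A tRNA, snoRNA or snRNA gene start within 500 bp of the summit, a class defined after the values were seen, was found at 5 of 42 member summits (11.9%), against 4.63% of all nuclear pooled summits. Above the 75 percentile it was found at 5 of 9 member summits (55.6%), against 13.3%. In the reproducible set it was found at all 4, which are those of him-5, zhp-3 and both of brd-1, against 53.3% of the 584 nuclear summits there. Of the 38 genes, 2 host a tRNA gene in an intron (5.26%), against 1.14% of all genes. Both hosts had a body summit in the reproducible set, as did 47.4% of the 228 host genes in all.

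Leaving these summits out, 9 members kept a start summit (23.7%, interval 11.4 to 40.2), against 26.6% of all genes. The body density of the members became 23.1 per 100 kb, against 18.8 in all genes, and the intron density 13.5 against 15.9. Whether REC-8::GFP at these sites belongs to the small RNA gene or to the member gene was not tested.

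**Figure D4:**
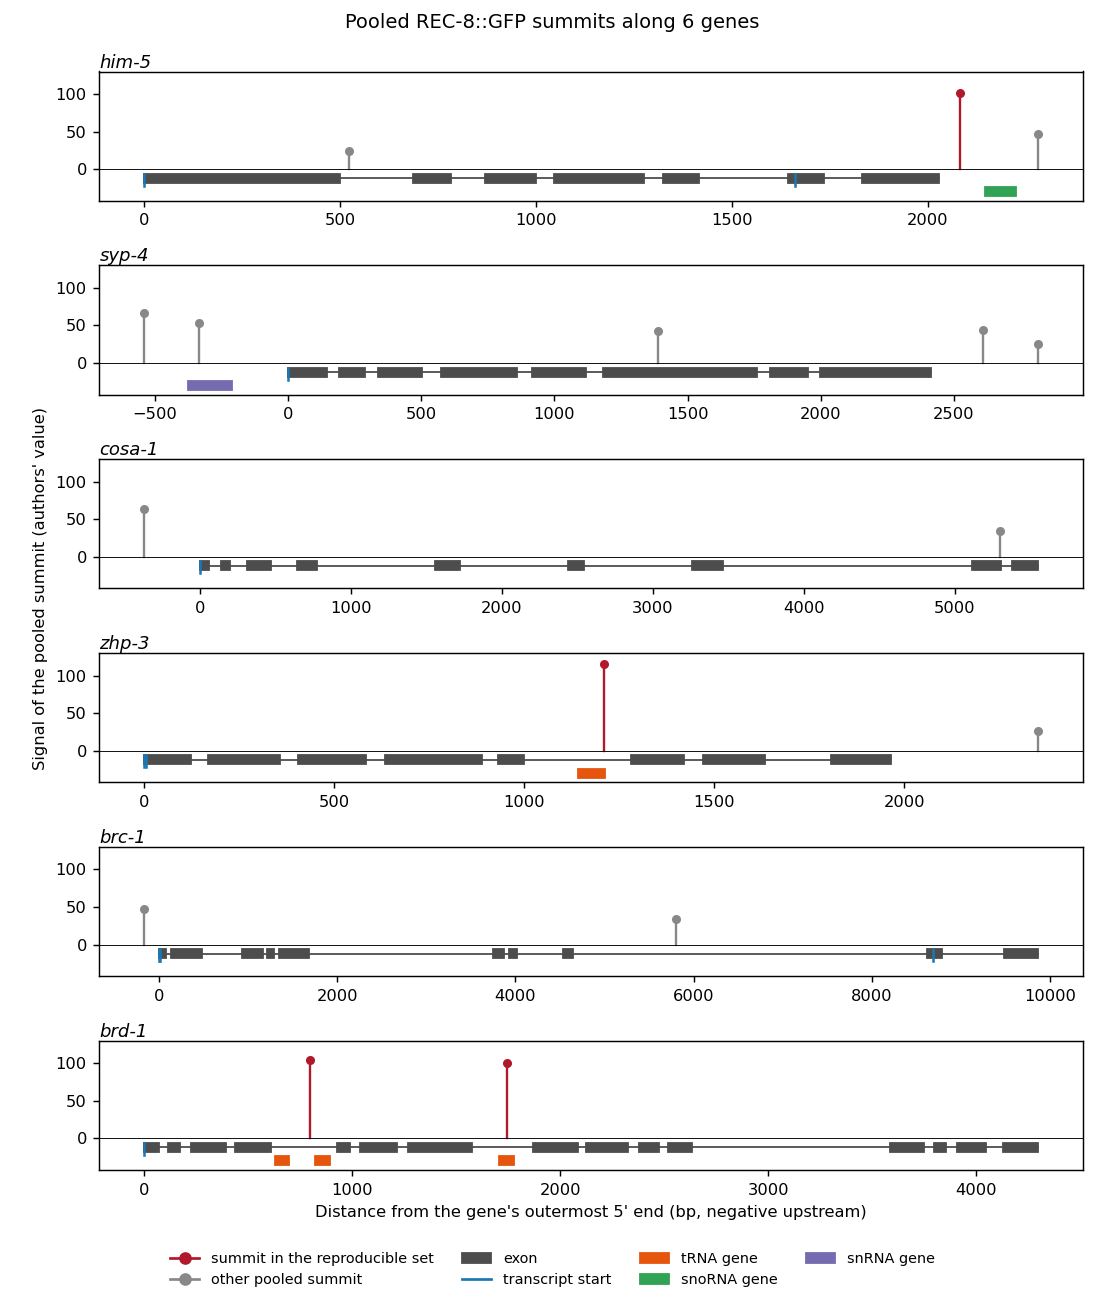
Pooled REC-8::GFP summits along him-5, syp-4, cosa-1, zhp-3, brc-1 and brd-1, drawn as stems whose height is the signal in the pooled list, against distance from the outermost 5′ end in bp, with exons, transcript starts and small RNA genes below. The summits in the reproducible set (red) stand beside smy-3 past him-5 and beside the tRNA genes in zhp-3 and brd-1, with signals of 100.3 to 115.2, while the cosa-1 and brc-1 start summits have no small RNA gene near.

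Start summits of the members lay mostly upstream. Of the 11 in the pooled list, 8 (72.7%) were upstream of the nearest start, against 57.1% over all genes with one. The median distance was 142 bp (range 41 to 421), against 211 bp. A small RNA gene was near 2 of the 11 (18.2%), syp-4 and him-5, against 3.33% over all genes with one. Over the 6 members with a start summit in both replicate lists, Spearman's rho between their percentiles was 0.83, against 0.42 over 3050 genes. These points share libraries and peak caller, and no p is given.

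None of the 38 genes lies on the X chromosome, which holds 13.7% of protein-coding genes. Chromosome IV holds 12 of them and V holds 8, III and I hold 7 each, and II holds 4. On III all 7 had a pooled body summit and 3 a start summit, while on IV 6 of 12 had a body summit and 2 a start summit. Over all genes the body shares were 48.4% on III and 39.4% on IV, and the start shares 36.7% on III and 27.8% on IV. On V, 5 of 8 members had a body summit and 3 a start summit, against 29% and 20.7% of all genes there. On I, 6 of 7 had a body summit and 1 a start summit, against 46% and 36.1%, and on II 2 of 4 had each, against 36.3% and 27.2%. The members' share with a pooled start summit, 28.9%, stands beside 28.4% of autosomal genes.

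Promoter sequence of the members was slightly poorer in GC, with a median of 31.9% against 34.2% over all protein-coding genes. TTCGCGC, searched on both strands in 300 bases from 250 before to 50 after the outermost 5′ end, was in 3 member promoters (7.89%), those of dsb-1, him-14 and chk-2, against 1.93%. CCGCCC was in 4 (10.5%), against 7.87%, GAGAGA in 4 (10.5%), against 21.8%, and TTCCCGC in 1 (2.63%), against 3.22%. Among the genes with TTCGCGC, dsb-1 alone had a pooled start summit, at the 20.7 percentile, and it had none in replicate 2. In replicate 2 alone, him-14 and chk-2 had start summits, at the 43.1 and 18.6 percentiles.

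Other genes of the same pathways were counted in the same way. Of 44 genes listed, 43 were found, and 18 (41.9%) had a pooled start summit, against 27.4% of all genes. A pooled body summit was found in 27 (62.8%), against 38% of all genes, with no allowance for gene length. A start summit was found at 7 of 9 cohesin genes (77.8%), 4 of 10 synapsis and pairing genes, 1 of 7 break and crossover genes and 6 of 17 repair genes. The 3 highest signals were those of smc-3 (71.3 in the pooled list, 24.0 in replicate 1, 47.8 in replicate 2), which encodes a core cohesin subunit, plk-1 (60.3, 39.7 and 23.7), a Polo kinase, and nbs-1 (59.7, 30.5 and 36.9), a repair gene. None of the 43 had a start or body summit in the reproducible set. rec-8 itself had no pooled start summit and a body summit of 29.1, at the 40.6 percentile.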

How the data were processed

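REC-8::GFP ChIP-seq peak lists of 2 biological replicates were analysed as deposited by the authors. Each list gives a signal per peak, which the authors deposited as their peak caller's own value, and a q-value, which the authors deposited as −log10 q. Per the notes deposited with the files, the pooled list was made from the alignments of both replicates and each replicate list from its own, with a further file as input, and the reproducible set was chosen from the pooled list. Aligner, peak caller, control and IDR threshold were not given in the sources used here. Depth is unknown, so no interval for a signal can be given.

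Summits were taken as the peak start plus the deposited offset, on ce11, and 0 peaks ended past a WBcel235 chromosome end. Genes, transcripts and starts came from Ensembl release 115, and sequences and RNA gene names from RefSeq, both on WBcel235. Annotated worm starts are often trans-splice sites. A start summit lay within 500 bp of any transcript start, the strongest was kept, and a body summit lay within the annotated gene. Summits within 100 bp were matched between lists. Promoters were searched for 5 words. Coding DNA was aligned globally in place of the proteins planned.

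The rule for named genes gave full values to members with a pooled start summit above the 50 percentile of the list or matched in both replicates. Values of zhp-3, brd-1, htp-2 and the other members were added after they were seen. The members and the lists were chosen with earlier results of these data known. The counting was tested on simulated peaks. Alternatives were windows of 250 and 1000 bp, the outermost 5′ end alone, overlap of the peak interval, the nearest gene alone, stronger peaks, each replicate and other backgrounds. The ce10 lists were not used. Python 3.11.15, numpy 2.4.6, pandas 2.3.3, scipy 1.17.1, Biopython 1.88 and matplotlib 3.10.9 were used.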

Additional observations from a re-analysis of the deposited data

How the results depend on the processing

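The members' start count moved with the setting, as did that of all genes. With a window of 250 bp, 7 members had a pooled start summit (18.4%, against 17% of all genes) and 3 in both replicates. By role that left 0 synaptonemal complex, 1 break and 0 crossover genes. With 1000 bp, 20 had one (52.6%, against 40.2%) and 15 in both replicates (39.5%, against 26.4%), with 1 axis, 3 synaptonemal complex, 6 break and 2 crossover genes. Counting overlap of the peak interval gave 1 axis gene, against 33.6% of all genes. Above the 50 percentile 1 pairing gene had a start summit, 15 members had a body summit and the body density was 12.3 per 100 kb, against 9.49. In the reproducible set there were 1 start, at a break gene, and 0 in every other role, 2 members with a body summit, and a body density of 2.31, against 0.364. All 3 of those member body summits lay near small RNA genes, and without such summits the density was 0, against 0.134 in all genes. Without summits near small RNA genes, an alternative chosen after seeing the data, 0 synaptonemal complex genes had a start summit.

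With 1 replicate left out, the start count ran from 14 to 17, the body count from 21 to 26 and the body density from 25.4 to 26.2 per 100 kb. By role the start counts were 0 in both for axis genes. They ran from 1 to 3 for synaptonemal complex, 3 to 4 for break and 3 to 4 for crossover genes. Pairing genes ran from 2 to 3 and repair genes from 3 to 5. Over all genes the start share was 28.2% in replicate 1 and 29.8% in replicate 2. Away from starts, 23 members (60.5%) and 27.7% of all genes had a body summit. The density of summits there was 29.4 per 100 kb in the members and 17.9 in all genes, with no interval computed. No paired analysis was possible because there was 1 group of samples. Unknown depth limits every absence: a gene without a summit was not called in these lists.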
